A study of Mus musculus with 31 samples.

Results

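Negative feedback on mitogen-activated protein (MAP) kinase signalling was followed through 9 genes: the dual-specificity phosphatases Dusp1, Dusp4, Dusp5 and Dusp6, the Sprouty genes Spry1, Spry2 and Spry4, and the Spred genes Spred1 and Spred2. They are 9 of the 48795 genes in the count table and were found there by symbol. The list was chosen by role, with the fold changes and p-values of control against deltamethrin in these same libraries already known, so the differences between the groups are given as a description and were not tested. Total RNA was sequenced from mouse brain in 31 libraries, 13 labelled control and 18 labelled deltamethrin, a pyrethroid insecticide that holds voltage-gated sodium channels open. The study concerned exposure during development, and RNA came from aliquots of brain homogenate. Strain, sex, litter, dose, route, age and time of day are not given in the sources used here, nor whether each library is a separate animal, so p-values measure only the spread between these libraries, which may be technical.

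A growth factor or synaptic signal activates RAS, which drives RAF, MEK and ERK in turn, and active ERK switches on genes that shut the pathway down again. The inducible phosphatases remove both phosphates from the activation loop of MAP kinases: Dusp1 and Dusp4 act in the nucleus on ERK, JNK and p38, Dusp5 acts in the nucleus on ERK, and Dusp6 acts on ERK in the cytoplasm. Sprouty proteins block signalling between receptor tyrosine kinases and RAF, and Spred proteins bring the RAS inhibitor neurofibromin to the membrane. In brain several of these transcripts are also induced by neuronal activity, together with Fos, Egr and Nr4a genes.

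The sequence around the start of transcription is shown for 4 members, because the results turn on how they varied across libraries: Dusp1 and Dusp6 moved with Fos, Spry2 was most like the gene for serum response factor, and Dusp5 did neither. The sequences are those of RefSeq on GRCm38.p6, from 250 bases before to 50 bases after the start. Windows were used for 7 of the 9 members, and none for Dusp4 and Spry4. Each is written 5′ to 3′ on the strand of its gene, and capitals mark every match to the motifs searched.
Dusp1 (chr17:26508423-26508722, minus strand): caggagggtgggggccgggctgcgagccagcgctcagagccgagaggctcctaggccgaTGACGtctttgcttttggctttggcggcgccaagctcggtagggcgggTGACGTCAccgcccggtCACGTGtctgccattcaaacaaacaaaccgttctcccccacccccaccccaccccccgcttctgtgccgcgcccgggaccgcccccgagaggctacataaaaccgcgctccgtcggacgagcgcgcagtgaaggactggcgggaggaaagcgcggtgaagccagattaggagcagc
Dusp5 (chr19:53528895-53529194, plus strand): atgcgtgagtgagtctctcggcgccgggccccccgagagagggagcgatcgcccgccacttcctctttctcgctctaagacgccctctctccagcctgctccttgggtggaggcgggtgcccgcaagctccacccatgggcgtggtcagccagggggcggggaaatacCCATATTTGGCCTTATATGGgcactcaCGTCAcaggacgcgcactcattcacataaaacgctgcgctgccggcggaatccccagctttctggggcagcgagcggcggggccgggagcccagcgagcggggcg
Dusp6 (chr10:99262981-99263280, plus strand): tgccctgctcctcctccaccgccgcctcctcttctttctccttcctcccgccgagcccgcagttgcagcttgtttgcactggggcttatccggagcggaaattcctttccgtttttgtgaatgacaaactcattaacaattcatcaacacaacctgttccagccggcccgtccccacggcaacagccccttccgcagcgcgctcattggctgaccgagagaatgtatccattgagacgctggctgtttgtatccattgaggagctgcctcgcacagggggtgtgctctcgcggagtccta
Spry2 (chr14:105896770-105897069, minus strand): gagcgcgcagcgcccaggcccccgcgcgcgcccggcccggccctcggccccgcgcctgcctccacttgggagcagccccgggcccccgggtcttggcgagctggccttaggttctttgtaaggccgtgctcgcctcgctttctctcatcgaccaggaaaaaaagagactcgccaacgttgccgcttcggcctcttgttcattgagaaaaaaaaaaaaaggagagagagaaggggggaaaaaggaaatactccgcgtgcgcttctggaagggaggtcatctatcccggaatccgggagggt
The motifs were searched on both strands: the cAMP response element TGACGTCA, its half-site TGACG, the E-box CACGTG, the AP-1 site TGANTCA, the ETS site CCGGAAG, and the CArG box bound by serum response factor. The half-site overlaps the full element, which contains it on both strands. The Dusp1 window held a full cAMP response element from -143 to -136, a separate half-site from -191 to -187 and an E-box from -126 to -121, counted from the start. The full element occurs in 1.79% of the 32851 windows of the same length, the half-site in 20.8% and the E-box in 7.15%. The Dusp5 window held 2 adjacent CArG boxes, from -82 to -73 and from -72 to -63, and a half-site on the opposite strand from -55 to -51. A CArG box occurs in 1.63% of all windows. The Dusp6, Spry1, Spry2 and Spred1 windows held none of the 6 motifs, and the Spred2 window held 1 half-site. The AP-1 site (7.81% of windows) and the ETS site (8.86%) were in none of the 7 windows. These matches describe letters and were not tested for binding.

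Total counts ran from 17570311 to 38680621 per library. The following 3 libraries bore on the results below and stood apart within their groups. Control replicate 2 had the lowest total count and 40.2% of its counts in the 2 ribosomal RNAs of the mitochondrial genome, against 8.49 to 27.4% in the other control libraries and 7.32 to 26.3% in deltamethrin. Control replicate 10 and deltamethrin replicate 5 had the highest Fos, a transcript induced within minutes of neuronal activity, with 42.7 and 36.2 CPM (read counts scaled to equal library size), against 19.0 and 10.3 CPM in the next highest library of each group. All 5 neuronal markers (Rbfox3, Snap25, Syt1, Slc17a7 and Gad1) were detected in every library, as were all markers of the other 9 lists, so the brain label held.

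Dusp1 (ENSMUSG00000024190, chr17:26505590-26562128, minus strand) encodes the broadest of the inducible nuclear phosphatases. It ran from 14.2 to 43.7 CPM in control with a median of 25.7, and from 12.2 to 36.4 CPM in deltamethrin with a median of 18.4. The highest library of each group was control replicate 10 and deltamethrin replicate 5, and 17 of 18 deltamethrin libraries lay inside the control range, while 16 of 18 lay below the control median. The means were 26.1 ± 8.68 CPM (SD, n = 13) and 20.1 ± 5.62 CPM (SD, n = 18), and the fitted log2 fold change, deltamethrin over control, was -0.37 ± 0.14 (SE). Of the 9 members this was the difference farthest from 0. In whole tissue, fewer cells of a type and less RNA per cell cannot be told apart.

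Dusp6 (ENSMUSG00000019960, chr10:99263231-99267489, plus strand), the cytoplasmic ERK phosphatase, had 25.9 to 67.2 CPM in control (median 36.5) and 25.3 to 65.6 CPM in deltamethrin (median 29.5). Control replicate 10 and deltamethrin replicate 5 stood alone at the top, since the next highest values were 38.4 and 35.2 CPM. Below the control median lay 17 of 18 deltamethrin libraries, yet the groups overlapped almost wholly. The log2 fold change was -0.18 ± 0.12 (SE). It moved with those libraries: it was -0.07 without control replicate 10, -0.27 without deltamethrin replicate 5, and -0.16 without both.

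Dusp4 and Dusp5 differed little between the groups. Dusp4 (ENSMUSG00000031530, chr8:34807297-34819894, plus strand), a nuclear phosphatase of the same kind as Dusp1, had 4.37 to 10.2 CPM in control (median 7.07) and 5.30 to 14.5 CPM in deltamethrin (median 6.65). Deltamethrin replicate 5 was again the highest, above 9.18 CPM in the next deltamethrin library and 10.2 CPM in control replicate 9. Its log2 fold change was 0.01 ± 0.12 (SE), with a sign that changed with the processing. Dusp5 (ENSMUSG00000034765, chr19:53529109-53542431, plus strand), the nuclear ERK phosphatase, had 10.2 to 24.2 CPM in control (median 16.2) and 9.20 to 24.0 CPM in deltamethrin (median 16.3). The 2 ranges nearly coincided. Its log2 fold change was -0.03 ± 0.12 (SE), positive at 0.02 without scaling factors.

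**Figure D1:**
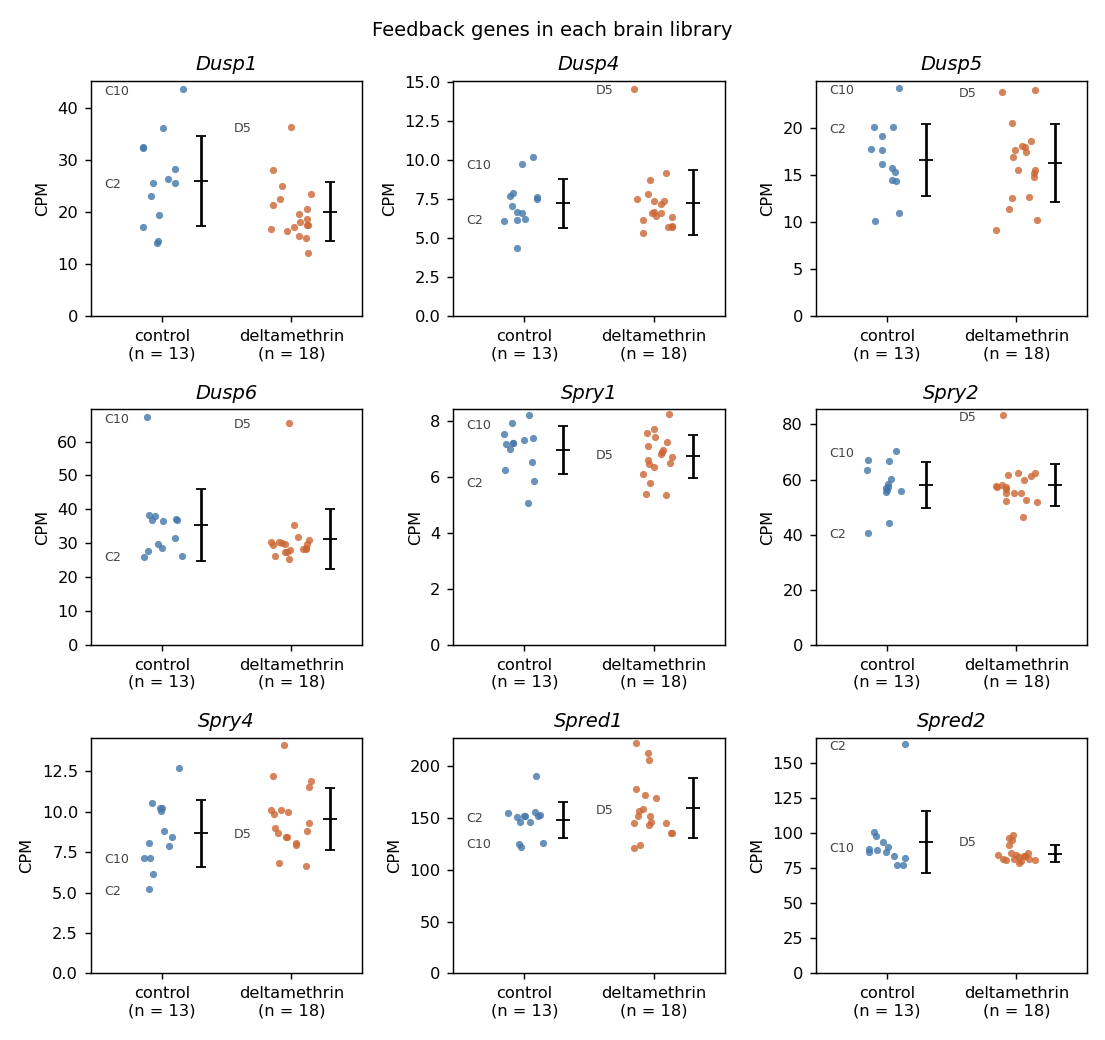
Each panel plots the CPM of 1 feedback gene on the vertical axis, 1 point per library, for 13 control and 18 deltamethrin libraries, with black bars for the mean ± SD. Control replicate 10 (C10) and deltamethrin replicate 5 (D5) lie far above the rest for Dusp6 at 67.2 and 65.6 CPM, control replicate 2 (C2) lies far above for Spred2 at 163 CPM, and the groups overlap in every panel.

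Among the Sprouty genes, Spry2 (ENSMUSG00000022114, chr14:105891947-105896819, minus strand) had the highest level. It ran from 40.8 to 70.3 CPM in control (median 57.4) and from 46.3 to 83.3 CPM in deltamethrin (median 57.3). Deltamethrin replicate 5 was the highest and control replicate 2 the lowest of all libraries. Its log2 fold change was 0.00 ± 0.07 (SE), the nearest to 0 of the 9, and its sign changed with the processing. Spry1 (ENSMUSG00000037211, chr3:37639947-37644598, plus strand) had 5.07 to 8.21 CPM in control (median 7.21) and 5.38 to 8.26 CPM in deltamethrin (median 6.78). It spanned 1.63-fold from the lowest library to the highest, and its log2 fold change was -0.05 ± 0.07 (SE).

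Spry4 (ENSMUSG00000024427, chr18:38586247-38601415, minus strand) was the only Sprouty gene with most deltamethrin libraries above the control median, 13 of 18 against 8 of 18 for Spry2 and 5 of 18 for Spry1. It had 5.20 to 12.7 CPM in control (median 8.46) and 6.62 to 14.1 CPM in deltamethrin (median 9.16). The lowest library was control replicate 2, and 17 of 18 deltamethrin libraries lay inside the control range. The log2 fold change was 0.13 ± 0.11 (SE).

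The Spred genes gave the most counts. Spred1 (ENSMUSG00000027351, chr2:117121374-117182279, plus strand), whose human counterpart is lost in Legius syndrome, had 122 to 190.2 CPM in control (median 151) and 121 to 222 CPM in deltamethrin (median 152). Deltamethrin replicates 1, 2 and 3 had 206, 212 and 222 CPM and lay above every control library. The log2 fold change was 0.11 ± 0.08 (SE), although the medians were nearly equal. Spred2 (ENSMUSG00000045671, chr11:19924375-20024026, plus strand) had 77.2 to 163 CPM in control (median 87.8) and 78.6 to 98.6 CPM in deltamethrin (median 83.8). Control replicate 2 alone accounted for the upper end, since the next control library had 101 CPM. Its scaling factor for library size was 0.613, against 0.843 to 1.084 in the other libraries, and a low factor raises every CPM of a library. The log2 fold change of -0.13 ± 0.07 (SE) was -0.04 without that library and -0.05 without scaling factors.

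Strand use in the authors' counting is not stated, which touches 3 members. Dusp1 shares 11 exonic bases with Ergic1 on the opposite strand, Dusp5 shares 547 with the antisense gene AC137853.2, and Spry1 shares 710 with Gm42922, which had at most 12 counts in any library. Reads from the 2 strands could not be told apart there if strand was ignored.

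Across all genes, edgeR's quasi-likelihood test with Benjamini-Hochberg adjustment called 0 of 19529 genes (0.00%) at an adjusted p-value under 0.05, and the smallest adjusted p-value was 0.441. DESeq2 also called 0. At an unadjusted p-value under 0.05 edgeR gave 853 genes (4.37%) and DESeq2 986. All 9 members passed the count filter, and 1 of them, Dusp1, was among the 853. Since the members were chosen with this contrast known, nothing is read from that count. The 462 genes lower in deltamethrin made up 2.37% against 391 higher, a split that became 172 lower and 541 higher without scaling factors. The median log2 fold change of the 9 members was -0.03 (5 negative, 4 positive), against 0.00 for all genes tested. Between the 5th and 95th percentile of all genes, -0.25 to 0.24, lay 8 of the 9 members.

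**Figure D2:**
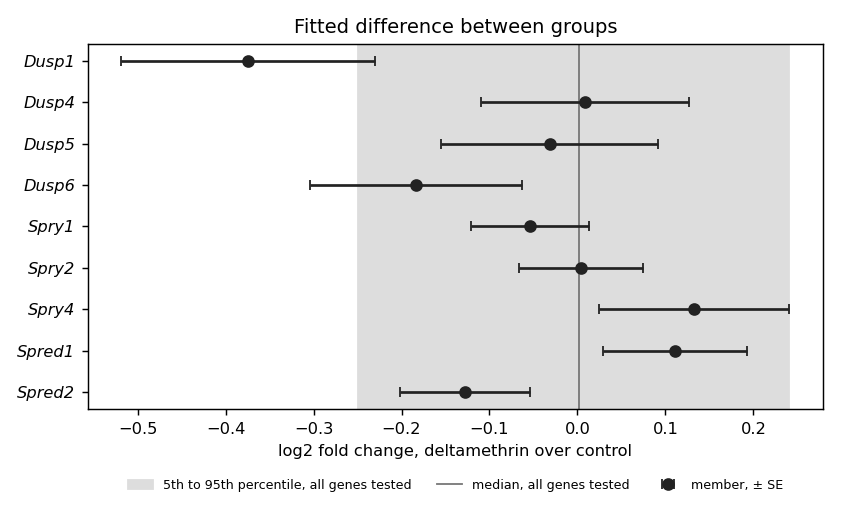
Fitted log2 fold change of each feedback gene, deltamethrin over control, on the horizontal axis, with bars for 1 SE, the median of all 19529 genes tested as a line and their 5th to 95th percentile (-0.25 to 0.24) as a grey band. Dusp1 at -0.37 is the one member outside the band.

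Levels between genes were compared as CPM per kilobase of exon, averaged over the 31 libraries. The length used was that of all annotated exons of a gene together, whichever transcripts are present in brain. Spry2 was highest at 27.8 ± 3.72 CPM per kb (SD, n = 31), followed by Spred1 at 22.8 ± 3.72 and Spred2 at 19.2 ± 3.29. The ranges of neighbours in the order overlapped in all 8 cases, so their order was read within libraries, and Spry2 exceeded Spred1 in 24 of 31 libraries. Dusp6, the highest phosphatase by this measure, had 10.5 ± 3.10 CPM per kb and exceeded Dusp1 (6.84 ± 2.28) in all 31. Dusp1 and Dusp5 (6.63 ± 1.60) could not be ordered on these lengths, with Dusp1 higher in 15 of 31 libraries. The Dusp1 annotation reaches 26562128, well beyond the window shown around its start, so its 3.311 kb can include exons of longer transcripts. A shorter length would raise Dusp1, so its place beside Dusp5 and below Dusp6 depends on the length used. Dusp4 had 2.65 ± 0.674 CPM per kb and lay below Dusp5 in all 31. Spry1 (2.35 ± 0.277) and Spry4 (1.93 ± 0.421) were lowest, with Dusp4 above Spry1 in 20 libraries and Spry1 above Spry4 in 26.

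The members also differed in how much they varied within a group. The SD of log2 CPM between libraries, with group means removed, was 0.424 for Dusp1, larger than that of 74.4% of the genes tested, and 0.367 for Dusp5. Dusp6, Dusp4 and Spry4 had 0.324, 0.323 and 0.312. Spred1 (0.220), Spry2 (0.194), Spred2 (0.191) and Spry1 (0.176) lay below the median of all genes, 0.288. The values of Dusp6 and Dusp4 rest on the 2 libraries highest in Fos: without control replicate 10 and deltamethrin replicate 5 they were 0.166 and 0.249, below the median of all genes, which stayed at 0.288. Dusp1 (0.367), Dusp5 (0.342) and Spry4 (0.319) lay above the median without them as well. Without control replicate 2 in addition, Spred2 had 0.105, the lowest of the 9, and Spry1 had 0.175. These libraries were left out after the data had been seen. An SD falls when the libraries at a gene's extreme are removed, so these values describe only the libraries that remain. For scale, Fos had an SD of 1.03.

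Which members moved together was examined on log2 CPM after each group's mean was removed, so that the difference between control and deltamethrin did not enter. The family held 54 relations: the 36 pairs of members, each member with Fos and each with the mitochondrial rRNA share. By Pearson's r, 14 had an adjusted permutation p-value under 0.05, 8 of them pairs of members. The smallest p-value the permutations can give is 1e-05. All correlations are across the same 31 libraries, which share sequencing depth, scaling and tissue make-up. How large a part of all genes has relations as strong was not examined, so these counts are not read as particular to the members.

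Dusp1 and Dusp6 rose and fell with Fos. Dusp1 with Fos had r = 0.854 (permutation p = 1e-05, adjusted 0.000135) and Spearman's rho = 0.814 (permutation p = 1e-05, adjusted 0.000135). Within control r was 0.894 and within deltamethrin 0.803, and without control replicate 10 and deltamethrin replicate 5, the libraries farthest from the median, it was 0.784. Dusp6 with Fos had r = 0.873 (permutation p = 1e-05, adjusted 0.000135) and rho = 0.792 (permutation p = 1e-05, adjusted 0.000135), with r = 0.899 within control, 0.846 within deltamethrin and 0.791 without those 2 libraries. The relation was thus present in both groups and away from the highest libraries. The 2 phosphatases also followed each other (r = 0.768, permutation p = 1e-05, adjusted 0.000135, rho = 0.767, permutation p = 1e-05, adjusted 0.000135, and r = 0.702 without the same 2).

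Dusp4 followed Fos less closely, and Spry2 did so mainly through the same 2 libraries. For Dusp4 r was 0.742 (permutation p = 2e-05, adjusted 0.000216), rho 0.575 (permutation p = 0.00102, adjusted 0.00787) and r without the 2 libraries 0.568 (adjusted permutation p = 0.0137). For Spry2 r was 0.572 (permutation p = 0.00191, adjusted 0.00859) but rho was 0.304 (permutation p = 0.107, adjusted 0.284) and r without them 0.304 (adjusted permutation p = 0.330). The relation of Spry2 to Fos thus rests on control replicate 10 and deltamethrin replicate 5. The same held for Dusp6 with Spry2 (r = 0.690, permutation p = 0.00022, adjusted 0.00148, rho = 0.395, permutation p = 0.0346, adjusted 0.125), where r was 0.461 without them (adjusted permutation p = 0.121). Dusp4 passed by r with Dusp6 (0.726, adjusted permutation p = 0.000849), Spry2 (0.666, adjusted 0.00156) and Dusp1 (0.647, adjusted 0.000849). By rho it passed with Spry2 and Dusp1 (adjusted permutation p = 0.0455 and 0.0363) but not with Dusp6 (adjusted 0.0635). Without the 2 libraries r was 0.463 with Dusp6, 0.45 with Spry2 and 0.48 with Dusp1 (adjusted permutation p = 0.0821, 0.114 and 0.0757). Dusp5 with Fos had r = 0.405 (permutation p = 0.0237, adjusted 0.0800) and rho = 0.280 (permutation p = 0.128, adjusted 0.301), and did not pass. Dusp5 did pass with Dusp4 (r = 0.615, adjusted permutation p = 0.00157, rho = 0.531, adjusted 0.0164). It also passed with Dusp1 (r = 0.546, adjusted permutation p = 0.0082, rho = 0.516, adjusted 0.0233). Without control replicate 10 and deltamethrin replicate 5, r was 0.510 with Dusp4 (adjusted permutation p = 0.0311) and 0.408 with Dusp1 (adjusted 0.114). For Spry1, Spry4, Spred1 and Spred2 r with Fos lay between -0.04 and 0.24 with adjusted permutation p-values from 0.346 to 0.963. Spry4 with Fos had r = 0.466 without control replicate 10 and deltamethrin replicate 5 (adjusted permutation p = 0.0821). There Spry1, Spred1 and Spred2 had 0.044, 0.0621 and -0.0657.

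**Figure D3:**
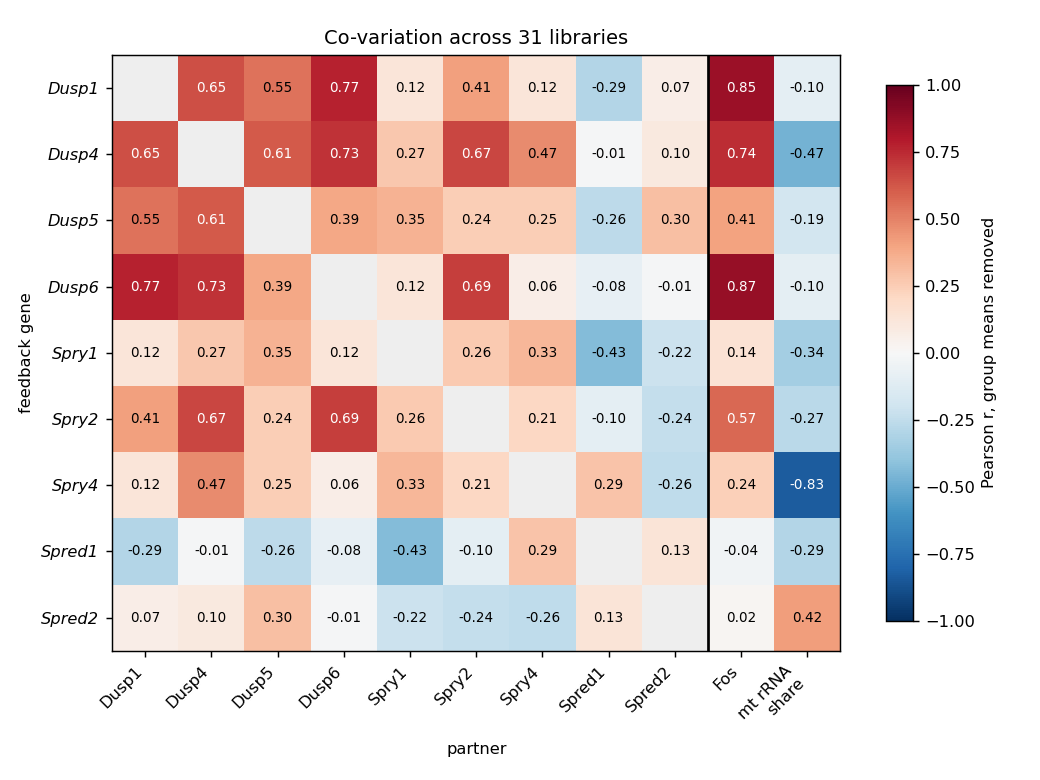
Pearson's r for each feedback gene (rows) with each other member, Fos and the mitochondrial (mt) rRNA share (columns) over 31 libraries, group means removed, on a colour scale from -1 to 1. Dusp1 and Dusp6 have their highest values with Fos (0.85 and 0.87), and Spry4 its lowest with the mitochondrial rRNA share (-0.83).

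**Figure D4:**
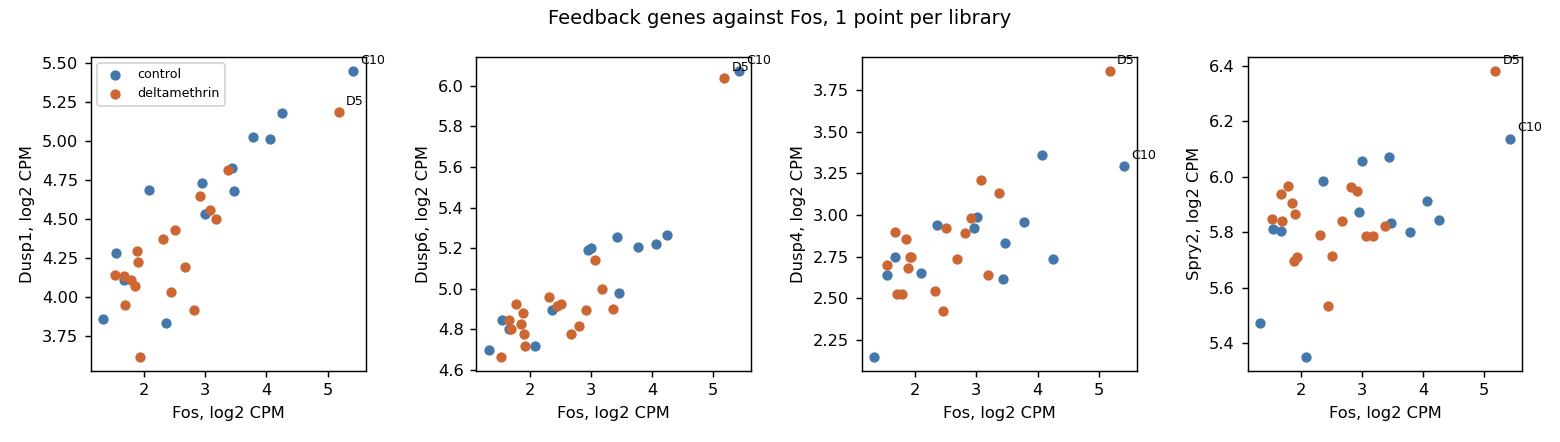
Log2 CPM of Dusp1, Dusp6, Dusp4 and Spry2 (vertical axes) against log2 CPM of Fos (horizontal axes), 1 point per library coloured by group. Dusp1 and Dusp6 rise with Fos also without control replicate 10 (C10) and deltamethrin replicate 5 (D5), with r = 0.784 and 0.791, while Spry2 does not (r = 0.304).

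The genes most like each member were taken as the 3 with the highest r over all genes tested, with group means removed. For Dusp6 they were Egr2 (0.927), Arc (0.916) and Fosb (0.908), and 7 of the 10 most alike genes belonged to a list of 10 activity-induced early genes. For Dusp1 they were Nr4a1 (0.870), Btg2 (0.869) and Junb (0.861), with 6 of 10 from that list. Dusp4 was nearest to Trib1 (0.802), Egr4 (0.799) and Per1 (0.796), with 3 of 10 from it. No gene of the list was among the 10 most like any other member. Dusp5 was nearest to Plekhf1 (0.778), Tlx3 (0.778) and Wscd2 (0.723), and Spry2 to Srf (0.824), the gene for serum response factor, Efhd2 (0.819) and Cdc42se1 (0.813). Among the genes most like Spry1 were Ccdc9b (0.765) and Exosc10 (0.730), and Spry4 was nearest to Tmppe (0.881), Elfn2 (0.880) and Apba1 (0.880). Spred1 was nearest to 9330132A10Rik (0.960), Zbtb41 (0.943) and AI504432 (0.940), and Spred2 to Dennd1a (0.854), Tent4a (0.833) and Ralgps1 (0.826). Each value is over 31 libraries, and without control replicate 10 and deltamethrin replicate 5 the value for Dusp6 with Fosb was 0.614.

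Spry4 moved with the composition of the libraries. With the mitochondrial rRNA share it had r = -0.829 (permutation p = 1e-05, adjusted 0.000135) and rho = -0.782 (permutation p = 1e-05, adjusted 0.000135). The r was -0.853 within control, -0.802 within deltamethrin and -0.761 without the 2 farthest libraries, control replicate 2 and deltamethrin replicate 8. Dusp4 was lower in the same direction (r = -0.469, permutation p = 0.0082, adjusted 0.0316, rho = -0.621, permutation p = 0.00031, adjusted 0.00335, and r = -0.451 without the same 2). Dusp4 and Spry4 were related to each other (r = 0.475, permutation p = 0.0077, adjusted 0.0316, rho = 0.610, permutation p = 0.00041, adjusted 0.00369), with r = 0.760 without control replicate 10 and deltamethrin replicate 5. Spred2 with the share had r = 0.421 (permutation p = 0.0436, adjusted 0.124) and rho = 0.114 (permutation p = 0.546, adjusted 0.719) and did not pass. Its high value in control replicate 2 stood in the library with the highest share and the lowest scaling factor. The part of the share and of the scaling factor in that value was not tested.

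Relations to 10 lists of cell type and region markers, 90 in all, were added after the data had been seen. Of these, 9 had an adjusted permutation p-value under 0.05 by r and 11 by rho. Spry4 was related to the mean log2 CPM of the astrocyte list (r = 0.747, permutation p = 1e-05, adjusted 0.0003, rho = 0.741, permutation p = 1e-05, adjusted 0.0003) and of the neuron list (r = 0.773, permutation p = 1e-05, adjusted 0.0003, rho = 0.764, permutation p = 1e-05, adjusted 0.0003). Without the 2 farthest libraries these were 0.815 and 0.728. It was also related to the oligodendrocyte precursor list (r = 0.741, permutation p = 1e-05, adjusted 0.0003, rho = 0.695, permutation p = 1e-05, adjusted 0.0003), the endothelium list (r = 0.601, permutation p = 0.00055, adjusted 0.00945, rho = 0.567, permutation p = 0.00139, adjusted 0.0194) and, negatively, the blood list (r = -0.692, permutation p = 7e-05, adjusted 0.00157, rho = -0.689, permutation p = 5e-05, adjusted 0.00112). Without the 2 libraries farthest in each list these were 0.761, 0.668 and -0.626. The oligodendrocyte (r = 0.123, adjusted permutation p = 0.774) and microglia lists (r = 0.193, adjusted permutation p = 0.686) did not pass, and r for both was negative within deltamethrin (-0.284 and -0.156). Nor did the choroid plexus, granule cell and striatum lists pass by r, although by rho the granule cell (0.613, adjusted permutation p = 0.00828) and striatum lists (-0.523, adjusted permutation p = 0.0355) did. The part of these markers and of the mitochondrial rRNA share in the level of Spry4 was not tested. Dusp4 passed by rho with the neuron (0.542, adjusted permutation p = 0.0237) and astrocyte lists (0.502, adjusted 0.0386), but not by r (0.343 and 0.332). Without control replicate 10 and deltamethrin replicate 5 its r was 0.645 and 0.564 (adjusted permutation p = 0.00675 and 0.0173). Spry2 passed with the neuron list only without those libraries (r = 0.592, adjusted permutation p = 0.0221). The 5 neuron markers summed to 1902 to 3921 CPM in control and 2461 to 3763 CPM in deltamethrin, and the 5 astrocyte markers to 427 to 730.3 and 491 to 966 CPM. The 3 precursor markers summed to 41.0 to 75.3 CPM in control and 45.7 to 105 CPM in deltamethrin, the 4 endothelium markers to 55.9 to 95.9 and 65.5 to 113 CPM, and the 5 blood markers to 492 to 1670 and 380 to 1242 CPM. Dusp5 was related to the cerebellar granule cell list (r = 0.582, permutation p = 0.00063, adjusted 0.00945, rho = 0.403, permutation p = 0.0287, adjusted 0.143), but r was 0.309 without control replicate 1 and deltamethrin replicate 14, which had the lowest marker values, so the relation rests on those libraries. With those libraries kept, r was 0.558 within control and 0.605 within deltamethrin. It was 0.71 without control replicate 10 and deltamethrin replicate 5 (adjusted permutation p = 0.000675). The 5 granule cell markers summed to 45.1 to 377 CPM in control and 60.5 to 492 CPM in deltamethrin. It was negatively related to the striatum list (r = -0.541, permutation p = 0.00213, adjusted 0.0240, rho = -0.557, permutation p = 0.00151, adjusted 0.0194), with r = -0.620 without the 2 farthest. Spred1 was related to the list of oligodendrocyte precursor markers (r = 0.587, permutation p = 0.00123, adjusted 0.0158, rho = 0.518, permutation p = 0.00417, adjusted 0.0375). That r was 0.711 within deltamethrin, 0.232 within control and 0.393 without deltamethrin replicates 1 and 2, among the 3 libraries with the highest Spred1. Spred1 also passed by r with the endothelium list (r = 0.488, permutation p = 0.00474, adjusted 0.0474), but not by rho (0.443, permutation p = 0.0131, adjusted 0.0982). There r was 0.639 within deltamethrin and 0.256 within control.

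**Figure D5:**
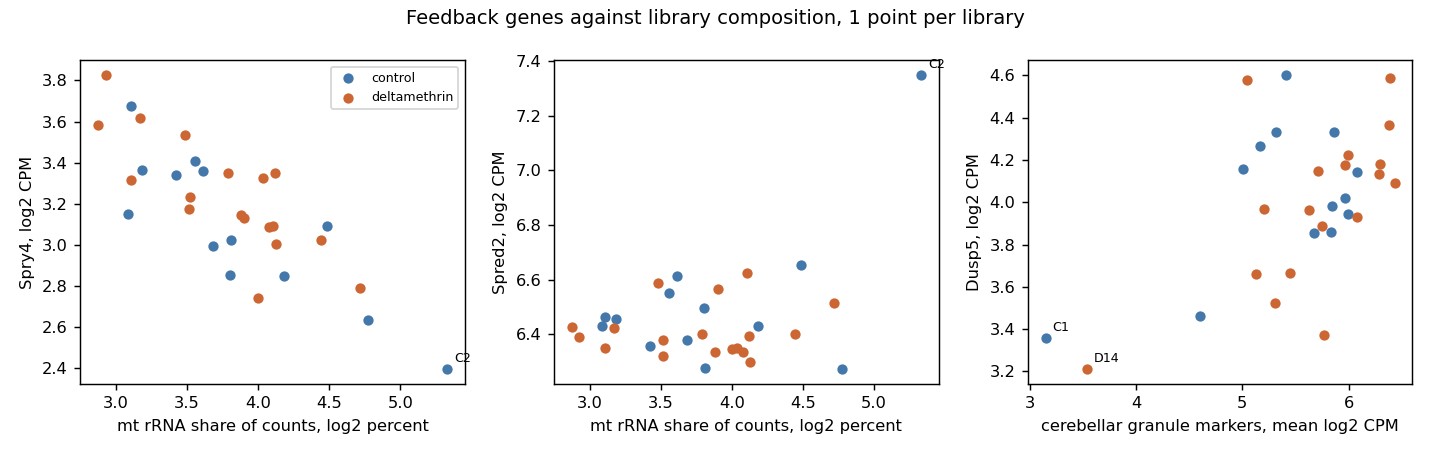
Log2 CPM of Spry4 and Spred2 against the log2 percentage of counts in mitochondrial (mt) rRNA, and of Dusp5 against the mean log2 CPM of 5 cerebellar granule cell markers, 1 point per library coloured by group. Spry4 falls steadily as the share rises, Spred2 stands high in control replicate 2 (C2) alone, and the slope for Dusp5 depends on control replicate 1 (C1) and deltamethrin replicate 14 (D14).

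The other genes of the pathway were read, by the same comparison over all genes, from lists chosen with earlier results of these data known. None of the 66 genes listed was among genes called by edgeR after adjustment, as the count of 0 over all genes implies. Of 6 further MAP kinase phosphatases (Dusp2, Dusp7, Dusp8, Dusp9, Dusp10 and Dusp16), 0 had an unadjusted p-value under 0.05, with a median log2 fold change of 0.03. Spry3 and Spred3, the remaining Sprouty and Spred genes, had 0.07 and 0.05. Of 8 other inhibitors of receptor, RAS and ERK signalling 0 had an unadjusted p-value under 0.05 (median 0.13), as was the case for 12 ligands and receptors (median 0.12), 13 RAS to ERK cascade genes (median 0.02), 5 JNK and p38 kinases (median 0.04) and 10 growth-factor-type ERK targets (median 0.03). Of the 10 activity-induced early genes, all had a negative fold change, with a median of -0.31, and 2 had an unadjusted p-value under 0.05, beside 4.37% of all genes. The fold change was negative for 49.5% of all genes. Since this list was chosen with earlier results of these data known, nothing is read from these counts. Whether this list differs from the others was not tested. Its genes are not independent of each other across libraries, since 7 of them were among the 10 genes most like Dusp6. The 2 genes were Ier2, at 9.11 ± 2.87 CPM in control (SD, n = 13) and 6.67 ± 1.79 CPM in deltamethrin (SD, n = 18), and Npas4, at 14.9 ± 9.91 and 9.02 ± 7.87 CPM. Fos itself had a log2 fold change of -0.68 ± 0.38 (SE). Of the 3 phosphatases that followed Fos across libraries, Dusp1 and Dusp6 had negative fold changes and Dusp4 had 0.01. The part of activity-induced transcription in the difference of Dusp1 was not tested.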

How the data were processed

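The authors deposited raw counts per Ensembl gene, whole numbers without normalization, with 1 column for each of the 31 libraries. The submitters' processing notes name Trimmomatic, HISAT2, SAMtools and MultiQC and the build GRCm38. The counting tool, the annotation and the use of strand are not given in the sources used here. Gene IDs were matched to GENCODE M21 (99.3% of 48795), which supplied coordinates and exon lengths.

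Genes were kept by filterByExpr of edgeR 4.0.16 (R 4.3.3; minimum count 10, minimum total 15), library sizes were scaled by TMM, and groups were compared by the quasi-likelihood F-test with robust=TRUE and no covariates. SEs were taken as |log2 fold change|/√F. CPM was computed on TMM-scaled library sizes, with a prior count of 2 on the log2 scale. Co-variation used two-sided permutation within groups with 100000 resamples and Benjamini-Hochberg adjustment over each family. The script was tested on simulated counts.

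The members and lists were chosen with earlier results of these data known. All 9 members were named. Genes of other lists were named at an unadjusted p-value under 0.05, at most 3 a list, except Spry3 and Spred3, the only 2 genes of theirs. One gene among those most like a member is not reported here. Alternatives were RLE and no scaling factors, 2 count filters, DESeq2 1.42.0, a mitochondrial rRNA covariate and leaving out each library. Leaving out control replicate 10 and deltamethrin replicate 5 together was not planned and is counted among the 7 alternatives below.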

Additional observations from a re-analysis of the deposited data

How the results depend on the processing

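After adjustment 0 genes were called at 0.05, also with the 7 alternatives and with any 1 of the 31 libraries left out (edgeR, and DESeq2 as one alternative). Without adjustment 853 genes passed 0.05, which became 1948 with no count filter (38214 genes tested), 1796 with the mitochondrial rRNA covariate, and 526 to 1389 when 1 library was left out. The number of members among them was 1, and it was 2, with Dusp6 added, without deltamethrin replicate 5 and also without both control replicate 10 and deltamethrin replicate 5, so 1 to 2 across the fits that left out 1 library. The members' median of -0.032 is the value of Dusp5, and both became 0.0217 without scaling factors, where the median of all genes rose to 0.04. It ran from -0.0774 to 0.0246 without 1 library. Dusp4 was -0.00268 with the mitochondrial rRNA covariate and -0.0314 without the 2 libraries highest in Dusp6, Spry2 was -0.00341 without those 2, and across single libraries left out Dusp4 ran from -0.0711 to 0.066, Dusp5 from -0.0774 to 0.0246 and Spry2 from -0.0325 to 0.030. The cause of these changes of sign was not tested. The other 6 members kept their sign in all of these fits, with Dusp1 from -0.437 to -0.291, Dusp6 from -0.271 to -0.0718, Spry1 from -0.0864 to -0.0318 and Spred2 from -0.148 to -0.0385 without 1 library. Without scaling factors Spry1 was -0.0206 and Spred2 -0.0482. Of the 54 relations 14 passed, 12 by Spearman's rho, 14 with RLE factors, 18 without control replicate 2 and 8 without control replicate 10 and deltamethrin replicate 5 together, and those 8 were all among the 14. The lowest count of a member in any library was 56, for Spry4. No paired analysis was possible because the labels give no number or origin shared by control and deltamethrin libraries.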
